A study of Mus musculus with 47 samples.

Results

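Microglia are the resident macrophages of the brain. In the undisturbed brain they carry a characteristic set of surface receptors and adaptor proteins, and 8 transcripts widely used to mark that state were followed here through the hypothalamic response to fibroblast growth factor 1 (FGF1): P2ry12, Tmem119, Cx3cr1, Csf1r, Siglech, Aif1, Trem2 and Tyrobp. They were chosen by name, with earlier results of these data known, so comparisons of their counts with all genes are descriptive. All 8 had a row in the gene count table, which holds 14221 genes.

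The 47 libraries came from bulk hypothalamus of male Lep ob/ob mice, which lack functional leptin and are obese, labelled as 11 weeks of age, with 1 mouse per library. FGF1-treated mice were given 3 µg recombinant human FGF1 once into a cerebral ventricle (icv), and vehicle-treated mice were injected without FGF1 and were pair-fed to the FGF1 mice. Hypothalami were taken on Day 1 (10 FGF1 and 4 vehicle mice), Day 5 (9 FGF1, 7 non-diabetic vehicle and 7 diabetic vehicle mice) and Day 42 (5 FGF1 and 5 vehicle mice). The labels call the vehicle mice of Days 1 and 42 non-diabetic and give no diabetic status for FGF1 mice, and every mouse of all 7 groups was Lep ob/ob. The study's methods state that mice not meeting its glucose criterion for diabetes were left out, which differs from these labels, so what sets the non-diabetic vehicle mice apart is known here from the labels only. Both Day 5 vehicle groups were used, and the same 9 FGF1 libraries enter both Day 5 comparisons.

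The tissue contains many cell types, so a transcript level reflects both the number of microglia and the RNA in each, and fewer cells of a type cannot be told apart from less RNA per cell. Each day was prepared under a single library code, so a difference in level between days cannot be told apart from a difference between preparations. Library totals ran from 1243280 to 47082403 counts for FGF1 Day 1, from 37281555 to 42887789 for vehicle Day 1 and from 19416026 to 43934003 on Day 42. On Day 5 they ran from 7695346 to 30009258 for FGF1, from 8005968 to 9864890 for non-diabetic and from 7579695 to 12451642 for diabetic vehicle. The 2 deepest Day 5 libraries were both FGF1, replicates 8 and 9, at 30009258 and 27922117 counts. In the shallowest library, FGF1 Day 1 replicate 1, the 8 transcripts had only 4 to 67 counts each, while Csf1r, the most abundant of them by count, reached 3663 counts elsewhere in that group. Non-diabetic vehicle Day 5 replicate 2 stood apart for microglial transcripts: the 8 summed to 271 CPM there and to 175 to 191 CPM in the 6 other libraries of its group. The 8 neuronal markers summed to 3110 CPM in it, against 3080 to 3250 CPM in those 6 libraries. Its 9 hypothalamic markers summed to 495 CPM (552 to 724 CPM in the 6) and its 3 choroid plexus markers to 25.0 CPM (29.3 to 35.0 CPM), each below all 6. Also below all 6 was a list of 6 genes, ligands of the members' receptors together with Tgfb1 and Cd34, at 1640 CPM (1660 to 1750 CPM). The Day 5 counts of called genes that changed without this library are given both ways.

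CSF1R, the receptor for the growth factors CSF1 and IL-34, keeps microglia alive. CX3CR1 is the receptor for the neuronal chemokine fractalkine, and P2RY12 is an ADP receptor that directs microglial processes toward sites of injury and is classically lost when microglia become activated. TREM2 is a lipid-binding receptor that signals through the adaptor DAP12, encoded by Tyrobp, and SIGLEC-H is a lectin-type receptor that also uses DAP12. IBA1, the calcium-binding protein encoded by Aif1, is found in macrophages of all kinds, whereas TMEM119 is used to separate microglia from other macrophages.

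The promoter sequences of P2ry12, Cx3cr1 and Aif1 are shown because these 3 genes passed the Day 1 test in opposite directions. Each is the 250 bases before the RefSeq transcription start in GRCm38.p6, written 5′ to 3′ on the gene's strand, and capitals mark letters that matched a searched motif on either strand.
P2ry12, chr3:59262986-59263235, minus strand: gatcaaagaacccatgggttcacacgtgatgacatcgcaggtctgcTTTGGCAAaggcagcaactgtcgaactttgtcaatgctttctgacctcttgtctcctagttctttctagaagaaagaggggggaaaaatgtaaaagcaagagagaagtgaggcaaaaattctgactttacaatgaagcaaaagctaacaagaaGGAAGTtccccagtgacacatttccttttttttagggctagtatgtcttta
Cx3cr1, chr9:120068297-120068546, minus strand: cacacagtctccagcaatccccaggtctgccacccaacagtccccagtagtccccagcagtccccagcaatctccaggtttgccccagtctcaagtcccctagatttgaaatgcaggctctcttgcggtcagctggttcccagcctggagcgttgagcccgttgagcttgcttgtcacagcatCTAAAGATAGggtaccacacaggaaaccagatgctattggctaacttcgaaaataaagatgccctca
Aif1, chr17:35176053-35176302, minus strand: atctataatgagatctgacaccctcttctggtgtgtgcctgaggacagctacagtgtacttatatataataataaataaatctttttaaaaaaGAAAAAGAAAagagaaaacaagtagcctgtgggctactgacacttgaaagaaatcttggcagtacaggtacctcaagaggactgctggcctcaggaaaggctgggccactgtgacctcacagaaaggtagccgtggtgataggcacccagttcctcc

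Motifs were searched on both strands over 300 bases, the 250 above and the first 50 of the transcript, in the 5 of 8 members and 11167 genes in all with an entry. The P2ry12 promoter held the ETS-type letters GGAAGT starting 51 bases before the start, found in 26.7% of all promoters, and the C/EBP-type letters TTGCNNAA on the other strand 204 bases before it, found in 8.01%. The Cx3cr1 promoter held the MEF2-type letters, CTA and TAG separated by any 4 bases, 67 bases before the start, found in 3.03% of promoters. In the Aif1 promoter the interferon-response type letters, GAAA and GAAA with any 2 bases between, lay 157 bases before the start, as in 2.85% of promoters. Siglech held GGAAGT and TTGCNNAA, Trem2 held GAGGAAG (13% of promoters), TGANTCA (4.72%) and TTGCNNAA, and none of the 5 held TATAAA (7.0%). These are matches of letters in a window and were not tested as binding sites.

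The genes lie on 6 chromosomes of GRCm38 in the GENCODE vM21 annotation: P2ry12 at chr3:59216272-59262871, Tmem119 at chr5:113793729-113800516, Tyrobp at chr7:30413760-30417585, Siglech at chr7:55768178-55778925, Cx3cr1 at chr9:119901616-120069879, Aif1 at chr17:35170991-35176068, Trem2 at chr17:48346401-48354147 and Csf1r at chr18:61100598-61132149. Exons of Csf1r shared 873 bases with Hmgxb3 on the other strand, Cx3cr1 78 bases with Gm33858 and P2ry12 9 bases with Med12l, so a small part of their reads depends on strand-aware counting, which the sources used here do not describe. Per kilobase of exon, in TMM-scaled RPKM, Tyrobp and Csf1r were the highest of the 8 in vehicle Day 1 hypothalamus, at 10.7 ± 2.37 and 9.39 ± 1.19 RPKM (SD, n = 4). Cx3cr1 and P2ry12 followed at 6.24 ± 0.615 and 6.2 ± 0.875 RPKM, then Siglech at 3.48 ± 0.284, Tmem119 at 2.67 ± 0.804, Aif1 at 1.71 ± 0.233 and Trem2 at 0.92 ± 0.213 RPKM. Neighbours in this order overlapped except Csf1r and Cx3cr1, P2ry12 and Siglech, and Aif1 and Trem2.

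One day after FGF1, the 8 transcripts did not move together. Tmem119, Aif1, Tyrobp, Csf1r and Cx3cr1 rose relative to vehicle, P2ry12 fell, and Siglech and Trem2 did not pass the test. A gene was counted as changed when its adjusted p was under 0.05 and its log2 fold change exceeded 0.5 in size, in edgeR's quasi-likelihood test with Benjamini-Hochberg adjustment over all 14221 genes. By that rule 6 of 8 members changed (5 higher, 1 lower), against 19.5% of all genes tested (11.5% higher, 8.05% lower). The median log2 fold change was 0.53 over the 8 members and 0.01 over all genes.

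P2ry12 was measured at 13.7, 18.6, 14.3 and 16.5 CPM (counts relative to the library total, scaled by TMM factors) in the 4 vehicle Day 1 libraries. In the 10 FGF1 libraries it ranged from 7.11 to 12.5 CPM with a median of 9.66. Every FGF1 library lay below every vehicle library, and the group means were 9.96 ± 1.80 CPM (SD, n = 10) and 15.8 ± 2.23 CPM (SD, n = 4). The log2 fold change was -0.66 (SE 0.14, adjusted p = 0.000121), which is 36.7% lower. An exact two-sided permutation test of the group difference gave p = 0.002, the smallest value that 10 against 4 libraries allow.

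Tmem119 went the other way. It was at 7.12, 3.67, 5.96 and 7.96 CPM in the vehicle libraries and between 9.78 and 18.2 CPM (median 13.5) in the FGF1 libraries. The groups did not overlap, and the log2 fold change was 1.15 (SE 0.17, adjusted p = 2.59e-07), or 2.21-fold. In ratios within single libraries depth cancels, but differences in base composition, given below, need not. Tmem119 had 0.404 ± 0.144 counts for each P2ry12 count with vehicle (range 0.197 to 0.518, n = 4) and 1.41 ± 0.519 with FGF1 (range 0.892 to 2.34, n = 10). On Day 5 the same ratio was 0.643 ± 0.0538 with FGF1 (0.571 to 0.722, n = 9), above all diabetic vehicle libraries (0.416 to 0.521, n = 7) and overlapping the non-diabetic ones (0.352 to 0.583, n = 7). The plot of one transcript against the other shows both shifts across the ratio lines.

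**Figure D1:**
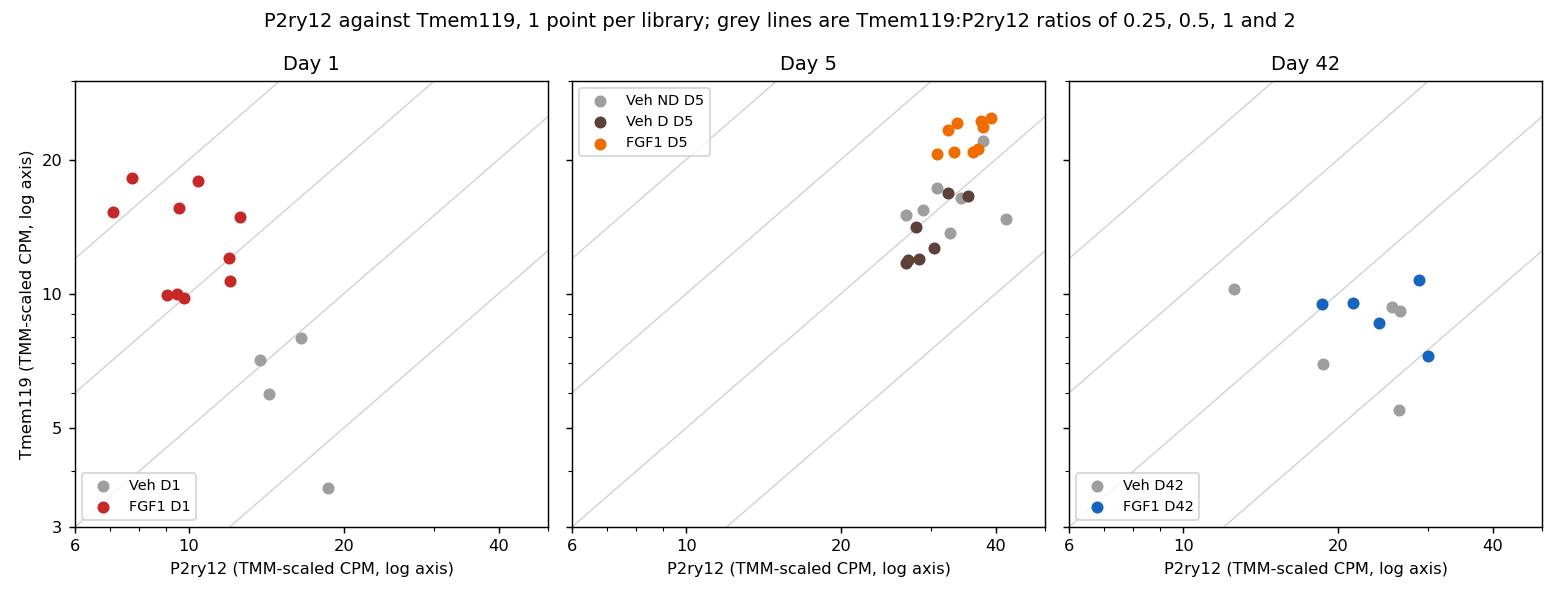
P2ry12 (x axis) against Tmem119 (y axis), both in TMM-scaled CPM on log axes, with 1 point per library and 1 panel per day; grey lines mark Tmem119:P2ry12 ratios of 0.25, 0.5, 1 and 2. On Day 1 the 10 FGF1 libraries lie left of and above the 4 vehicle libraries, with within-library ratios of 0.892 to 2.34 against 0.197 to 0.518, on Day 5 the FGF1 ratios of 0.571 to 0.722 lie above those of diabetic vehicle (0.416 to 0.521) but not all those of non-diabetic vehicle, and on Day 42 the groups overlap.

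Aif1 stood at 2.39, 2.23, 2.91 and 2.93 CPM with vehicle and between 3.74 and 6.35 CPM (median 4.79) with FGF1. All FGF1 libraries were above all vehicle libraries, with a log2 fold change of 0.88 (SE 0.18, adjusted p = 6.26e-05). Cx3cr1 was at 24.5, 27.6, 29.5 and 30.9 CPM with vehicle and at 32.3 to 53.0 CPM (median 39.7) with FGF1. Its groups did not overlap either, although the log2 fold change of 0.51 (SE 0.11, adjusted p = 0.000223) was close to the fold threshold. In all, 4 of 8 members had groups that did not overlap on Day 1 (P2ry12, Tmem119, Cx3cr1 and Aif1), against 14.4% of all genes. For each of these 4 the exact permutation p was 0.002. It is unadjusted, and 40 such tests were run over the members and comparisons.

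Csf1r had 55.8, 47.7, 50.3 and 63.2 CPM with vehicle, and with FGF1 it ranged from 54.6 to 93.6 CPM (median 78.2). Only the lowest FGF1 library, the shallow replicate 1, fell within the vehicle range, and the log2 fold change was 0.54 (SE 0.11, adjusted p = 6.17e-05). For Cx3cr1 and Csf1r the adjusted p stayed below 0.05 in every alternative tried, but the size came under 0.5 in some of them, such as DESeq2 with 0.47 and 0.49. Without FGF1 replicate 1 the Cx3cr1 value was 0.49, without vehicle replicate 1 it was 0.45, and without vehicle replicate 2 the Csf1r value was 0.49.

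The transcripts of TREM2 and its adaptor changed proportion. Tyrobp was at 7.89, 5.28, 6.47 and 8.89 CPM with vehicle and at 8.15 to 14.8 CPM (median 13.2) with FGF1, where 1 library of each group fell into the range of the other. Its log2 fold change was 0.85 (SE 0.14, adjusted p = 4.08e-06). Trem2 was at 5.00, 3.08, 4.61 and 5.53 CPM with vehicle and at 3.26 to 6.04 CPM (median 4.29) with FGF1. Its log2 fold change was 0.04 with a 95% confidence interval from -0.28 to 0.36 (adjusted p = 0.86). Per library, the ratio of Tyrobp to Trem2 counts was 1.58 ± 0.129 with vehicle (1.40 to 1.72, n = 4) and 2.80 ± 0.456 with FGF1 (2.22 to 3.41, n = 10), with no overlap.

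Siglech was the other member with a value below zero. It stood at 11.2, 11.0, 11.7 and 13.1 CPM with vehicle and between 4.85 and 12.8 CPM (median 9.64) with FGF1. Its log2 fold change of -0.26 (SE 0.13, 95% confidence interval from -0.51 to just above zero, adjusted p = 0.108) did not pass the test. Csf1r had 1.94 ± 0.276 counts for each of Cx3cr1 with vehicle (1.71 to 2.28, n = 4) and 1.96 ± 0.42 with FGF1 (1.03 to 2.42, n = 10), and these ranges overlapped. On the per-length scale P2ry12 ranked beside Cx3cr1 in vehicle Day 1 libraries, and below Tmem119 in FGF1 libraries, at 3.91 ± 0.708 against 5.8 ± 1.43 RPKM (SD, n = 10).

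**Figure D2:**
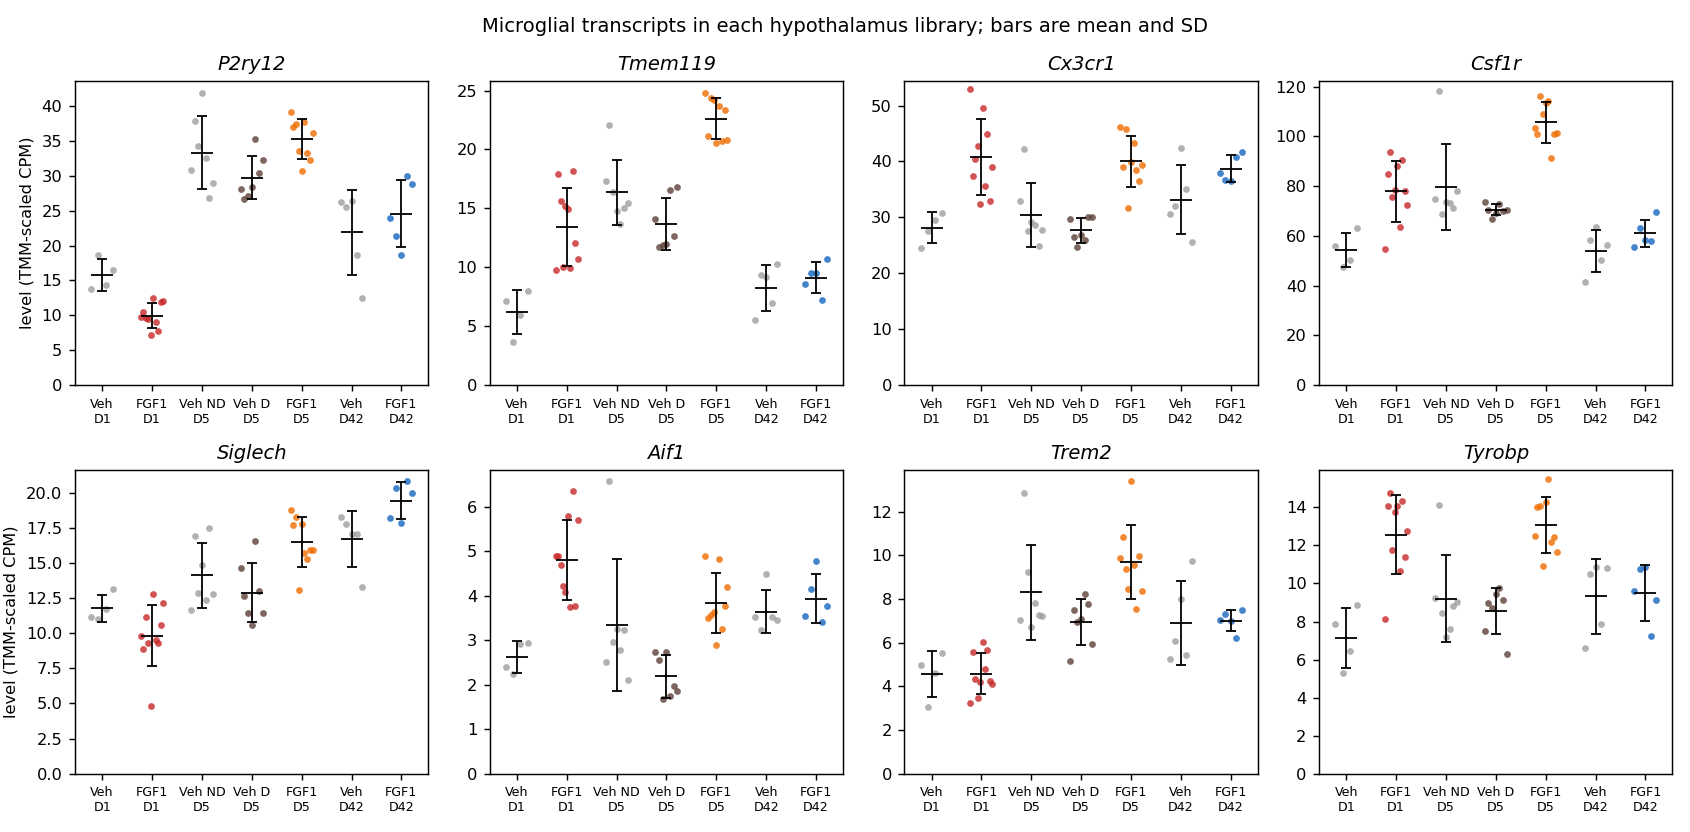
Level of each of the 8 transcripts (y axis, TMM-scaled CPM, from zero) in every library of the 7 groups (x axis: Veh, vehicle; ND, non-diabetic; D, diabetic; D1, D5 and D42, the days); points are libraries and bars the mean and SD. On Day 1 P2ry12 is lower in every FGF1 library than in any vehicle library while Tmem119 and Aif1 are higher, and in non-diabetic vehicle Day 5 one library is far above the others for Csf1r (118.4 CPM), Aif1, Trem2 and Tyrobp.

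Base composition moved with part of this pattern. GC content of the longest coding transcript ran from 38.6% for P2ry12, lower than in all but 2.36% of genes, through 45.5% for Siglech, 50.3% for Cx3cr1, 51.4% for Aif1, 54.5% for Csf1r, 54.8% for Tyrobp and 57.5% for Trem2, to 59.1% for Tmem119. Over all genes the Day 1 median log2 fold change was higher at higher GC content, from -0.12 in the lowest of 5 equal GC bins through -0.06, -0.01 and 0.07 to 0.15 in the highest. With an offset for GC content in the fit, an alternative chosen after seeing the data, P2ry12 was at -0.51 (SE 0.11, adjusted p = 0.000208) and Tmem119 at 1.00. Both remained past the thresholds, as did Aif1 at 0.85, Tyrobp at 0.78 and Cx3cr1 at 0.55, while Csf1r at 0.46 came under the fold threshold. Trem2, with almost the GC content of Tmem119, was at -0.10. The GC contrast of a library was the median log2 deviation of genes in the highest GC bin minus that in the lowest. It ran from -0.584 to 0.524 in vehicle and from -0.307 to 0.802 in FGF1 Day 1 libraries. Vehicle replicate 2 and FGF1 replicate 10 had the lowest contrasts and the lowest Tmem119:P2ry12 ratios of their groups. The libraries of highest contrast did not have the highest ratios. How far that ratio depends on base composition was not tested.

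**Figure D3:**
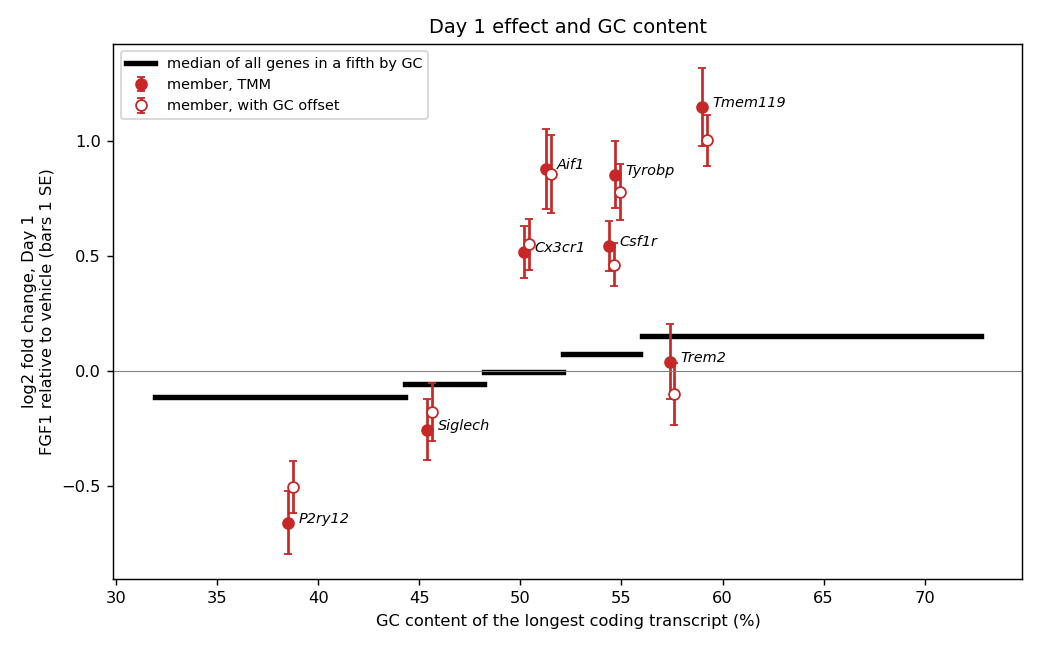
Day 1 log2 fold change, FGF1 relative to vehicle (y axis, bars 1 SE), against GC content of the longest coding transcript in percent (x axis) for the 8 transcripts, with TMM scaling (filled) and with a GC offset (open); black lines are the medians of all genes in each of 5 equal GC bins. P2ry12 moves from -0.66 to -0.51 and Tmem119 from 1.15 to 1.00 with the offset, and the medians of the bins run from -0.12 to 0.15.

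On Day 5 all 8 transcripts had a value above zero against both vehicle groups, and how many passed depended on the control. Against diabetic vehicle 5 of 8 rose (Tmem119, Cx3cr1, Csf1r, Aif1 and Tyrobp), where 2.85% of all genes passed (2.36% higher), and the median of the members was 0.56. Against non-diabetic vehicle 0 of 8 passed both thresholds, where 1.54% of all genes did. There 4 of 8 passed on adjusted p alone (4.65% of all genes), each with a log2 fold change of 0.39 to 0.50, and the median of the members was 0.31. The same 4 (Tmem119, Cx3cr1, Csf1r and Tyrobp) had an unadjusted p under 0.05, against 16.5% of all genes, and DESeq2 called 0 members (1.6% of all genes) and limma voom 2 (3.08%). The median over all genes was -0.01 in both comparisons. P2ry12, the transcript that fell on Day 1, was at 0.08 (SE 0.12) against non-diabetic and 0.24 (SE 0.12) against diabetic vehicle and passed neither edgeR test. Its libraries ranged from 30.7 to 39.2 CPM with FGF1 (median 36.1), from 26.8 to 41.9 CPM with non-diabetic vehicle (median 32.6) and from 26.7 to 35.3 CPM with diabetic vehicle (median 28.4), and all 3 groups overlapped. The exact two-sided permutation test of P2ry12 gave an unadjusted p = 0.00367 against diabetic and p = 0.3 against non-diabetic vehicle.

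Tmem119 in the FGF1 Day 5 libraries ranged from 20.6 to 24.8 CPM (median 23.4), in non-diabetic vehicle from 13.7 to 22.1 CPM (median 15.4) and in diabetic vehicle from 11.7 to 16.8 CPM (median 12.7). The FGF1 libraries all lay above the diabetic vehicle libraries, and of the non-diabetic ones only replicate 2 reached their range. The log2 fold changes were 0.47 (SE 0.14, adjusted p = 0.042) against non-diabetic and 0.72 (SE 0.14, adjusted p = 0.000354) against diabetic vehicle.

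Csf1r varied little among the diabetic vehicle mice, at 70.5 ± 2.28 CPM (66.8 to 73.6, n = 7), and was at 105.7 ± 8.21 CPM (91.2 to 116.3, n = 9) with FGF1. It was 49.9% higher than in diabetic vehicle, with a log2 fold change of 0.58 (SE 0.09, adjusted p = 1.37e-05). In non-diabetic vehicle it was at 79.7 ± 17.3 CPM (68.7 to 118.4, n = 7), where the log2 fold change of 0.41 (SE 0.09, adjusted p = 0.00361) remained under the fold threshold. Cx3cr1 ranged from 31.6 to 46.1 CPM with FGF1 (median 39.4), from 24.7 to 30 CPM in diabetic and from 24.9 to 42.2 CPM in non-diabetic vehicle. Its log2 fold changes were 0.53 (SE 0.10, adjusted p = 0.000198) against diabetic and 0.39 (SE 0.10, adjusted p = 0.0108) against non-diabetic vehicle.

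Tyrobp ranged from 10.9 to 15.5 CPM with FGF1 on Day 5 (median 12.5), from 6.28 to 9.78 CPM in diabetic and from 7.19 to 14.2 CPM in non-diabetic vehicle. Its log2 fold change was 0.61 (SE 0.13, adjusted p = 0.00106) against diabetic vehicle, and against non-diabetic vehicle it was 0.50 (SE 0.13, adjusted p = 0.0136), just short of the fold threshold. Trem2, at 7.53 to 13.4 CPM with FGF1 (median 9.55), 5.19 to 8.23 CPM in diabetic and 6.73 to 12.8 CPM in non-diabetic vehicle, was at 0.47 (SE 0.15, adjusted p = 0.0298) against diabetic and 0.22 (SE 0.14) against non-diabetic vehicle. The ratio of Tyrobp to Trem2 counts was 1.37 ± 0.185 with FGF1 (n = 9), 1.24 ± 0.126 with diabetic and 1.12 ± 0.147 with non-diabetic vehicle (n = 7 each), and the 3 ranges overlapped.

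Aif1 was the least abundant member by count on Day 5, with 18 to 60 counts per vehicle library. It ranged from 2.88 to 4.89 CPM with FGF1 (median 3.63) and from 1.68 to 2.75 CPM in diabetic vehicle (median 1.97), and these groups did not overlap. The log2 fold change against diabetic vehicle was 0.83 (SE 0.17, adjusted p = 0.000922), whereas against non-diabetic vehicle, at 2.10 to 6.58 CPM (median 2.95), it was 0.21 (SE 0.17, adjusted p = 0.614). Siglech ranged from 13.1 to 18.8 CPM with FGF1, from 10.6 to 16.6 CPM in diabetic and from 11.7 to 17.5 CPM in non-diabetic vehicle. Its values of 0.35 (SE 0.12, adjusted p = 0.0553) and 0.22 (SE 0.12, adjusted p = 0.367) did not pass in edgeR. Between FGF1 and diabetic vehicle the groups did not overlap for Tmem119, Cx3cr1, Csf1r, Aif1 and Tyrobp, 5 of 8 members against 6.08% of all genes (3.63% higher). Between FGF1 and non-diabetic vehicle they overlapped for all 8, where 3.93% of all genes did not overlap. In exact two-sided permutation tests against diabetic vehicle, the unadjusted p was 0.000175 for those 5 members, the smallest value that these groups allow, 0.000874 for Trem2 and 0.0042 for Siglech. Against non-diabetic vehicle the exact permutation p, also unadjusted, was 0.000874 for Tmem119, 0.00175 for Tyrobp, 0.0021 for Csf1r, 0.00332 for Cx3cr1, 0.0399 for Siglech, 0.113 for Trem2 and 0.206 for Aif1.

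The 2 vehicle groups of Day 5 were also compared with each other. All 8 values were below zero in diabetic relative to non-diabetic vehicle, with a median of -0.17, and 0 of 8 passed, as did 0% of all genes tested by edgeR (193 genes, 1.36%, and 1 member, Aif1, had an unadjusted p under 0.05). DESeq2 and limma voom also called no member. Aif1 had the value of greatest size, -0.62 (SE 0.19, unadjusted p = 0.00193, adjusted p = 1.00). Its exact two-sided permutation p was 0.021, unadjusted. Without non-diabetic vehicle replicate 2, Aif1 was at -0.37, Trem2 at -0.12 in place of -0.26, Csf1r at -0.06 in place of -0.18 and Cx3cr1 at -0.04 in place of -0.14, and Tyrobp turned from -0.11 to 0.02. In 0 of 8 members did these groups not overlap, against 0.0984% of all genes.

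The same library bears on the comparison of FGF1 with non-diabetic vehicle. It was the highest of its 7 for 6 of 8 members, all 3 C1q subunits, 9 of 10 pan-myeloid genes and 6 of 7 signalling partners of TREM2, but for 0 of 5 border macrophage markers and 15.6% of all genes. Without it 3 members passed in that comparison, against 1.76% of all genes: Csf1r at 0.53 (adjusted p = 1.74e-05), Tyrobp at 0.63 (adjusted p = 0.000766) and Tmem119 at 0.55 (adjusted p = 0.0146), with Cx3cr1 at 0.49, Aif1 at 0.46 (adjusted p = 0.0637), Trem2 at 0.35 (adjusted p = 0.169), Siglech at 0.27 and P2ry12 at 0.12. The median of the 8 members was then 0.47. Tyrobp alone passed when FGF1 replicate 1, 4, 7, 8 or 9 was left out, at 0.50 to 0.53. Against diabetic vehicle Tmem119, Cx3cr1, Csf1r, Aif1 and Tyrobp passed in each of the 23 fits that left out 1 library, and Trem2 joined them in 4, at 0.50 to 0.52.

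**Figure D4:**
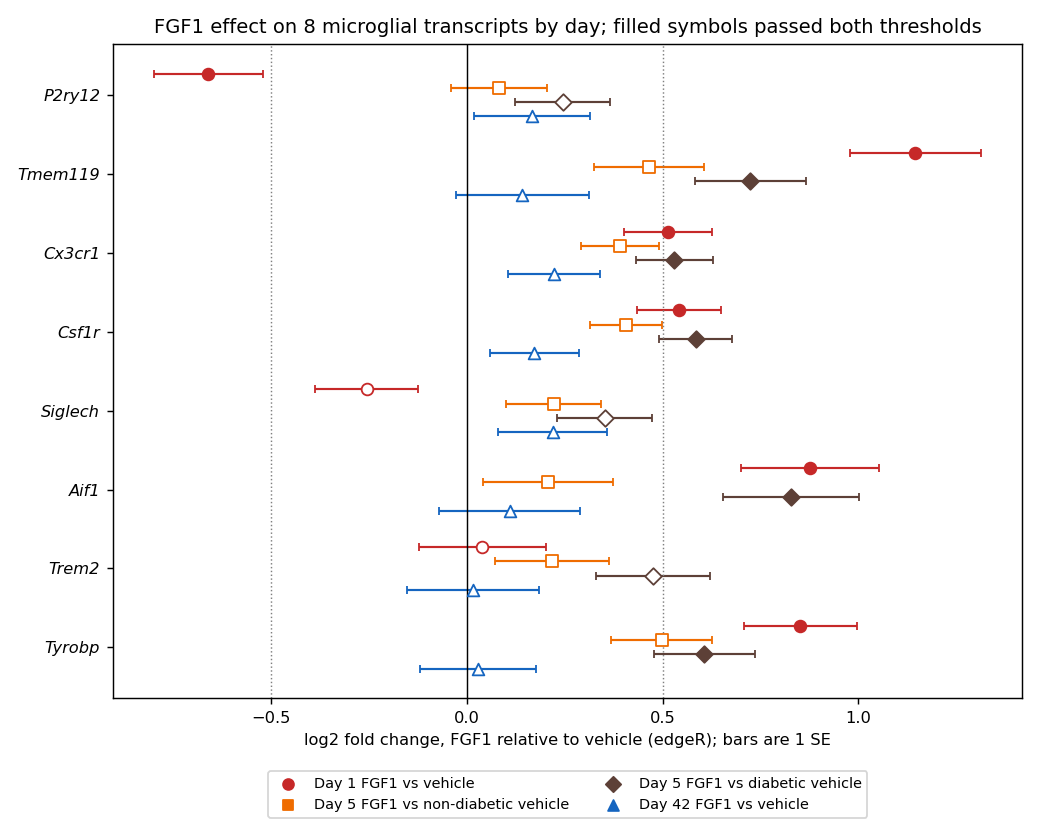
Log2 fold change of FGF1 relative to vehicle (x axis, edgeR; bars 1 SE) for each of the 8 transcripts on Day 1, on Day 5 against each vehicle group, and on Day 42; filled symbols passed an adjusted p of 0.05 and the fold threshold of 0.5 (dotted lines). Day 1 values spread from -0.66 for P2ry12 to 1.15 for Tmem119, the Day 5 values are all above zero, and the Day 42 values lie between 0.02 and 0.22.

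On Day 42 no member passed the thresholds in edgeR. All 8 values were above zero, from 0.02 for Trem2 to 0.22 for Cx3cr1 and Siglech, with a median of 0.15 against -0.01 over all genes. Of the members 0 passed, as did 0% of all genes tested by edgeR (776 genes, 5.46%, and 0 members had an unadjusted p under 0.05), and DESeq2 and limma voom called no member either. P2ry12 was at 26.3, 25.5, 26.4, 18.7 and 12.5 CPM with vehicle and at 24.02, 21.4, 18.6, 29.9 and 28.8 CPM with FGF1. Tmem119 was at 5.49, 9.32, 9.17, 6.95 and 10.3 CPM with vehicle and at 8.62, 9.52, 9.49, 7.25 and 10.7 CPM with FGF1. Both sets of groups overlapped over most of their range, and the 95% confidence intervals of the log2 fold changes were -0.12 to 0.46 for P2ry12 and -0.19 to 0.48 for Tmem119.

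Siglech had 18.3, 17.8, 17.1, 17.1 and 13.3 CPM with vehicle on Day 42 and 18.2, 20.3, 17.9, 20.8 and 19.99 CPM with FGF1. The exact two-sided permutation test of Siglech gave p = 0.0238, unadjusted, the lowest among the 8 members on that day, where 5 against 5 libraries allow no value under 0.00794. In edgeR its log2 fold change was 0.22 (SE 0.14, adjusted p = 1.00). Cx3cr1 had 30.6, 32.1, 42.5, 35.1 and 25.7 CPM with vehicle and 38.0, 36.6, 36.6, 40.8 and 41.7 CPM with FGF1. Its highest vehicle library lay above all FGF1 libraries and the other 4 below them all (log2 fold change 0.22, SE 0.12, adjusted p = 0.967). Csf1r ranged from 41.6 to 63.7 CPM with vehicle and from 55.7 to 69.6 CPM with FGF1, and Tyrobp from 6.60 to 10.9 CPM and from 7.25 to 10.9 CPM. Aif1 lay between 3.23 and 4.48 CPM with vehicle and between 3.41 and 4.77 CPM with FGF1, and Trem2 between 5.26 and 9.76 CPM and between 6.24 and 7.50 CPM. In all, 0 of 8 members had groups that did not overlap, against 0.267% of all genes.

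The FGF1 effect itself was then compared between days with contrasts in the same fit, taking the non-diabetic vehicle on Day 5. The P2ry12 effect was higher by 0.74 (SE 0.19, adjusted p = 0.00199) from Day 1 to Day 5 and by 0.83 (SE 0.20, adjusted p = 0.0019) from Day 1 to Day 42. The Tmem119 effect fell by 0.68 (SE 0.21, adjusted p = 0.0144) from Day 1 to Day 5 and fell by 1.00 (SE 0.24, adjusted p = 0.00122) from Day 1 to Day 42. The Aif1 effect fell by 0.67 (adjusted p = 0.0327) and fell by 0.77 (adjusted p = 0.0185) over the same days, and the Tyrobp effect fell by 0.82 between Days 1 and 42 (SE 0.20, adjusted p = 0.00214). In all, 3 of 8 members differed between Days 1 and 5, against 15.8% of all genes, and 4 of 8 between Days 1 and 42, against 16.4%. Between Days 5 and 42, 0 of 8 did, against 0.717% of all genes. DESeq2 and limma voom also called no member there, and 1 member, Tyrobp, had an unadjusted p under 0.05 (difference -0.47, unadjusted p = 0.0212), against 9.98% of all genes.

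The P2ry12 difference between Days 1 and 5 passed in all 40 settings tried, from 0.59 to 0.90. Between Days 1 and 42, P2ry12, Tmem119 and Tyrobp each passed in all 24 settings tried. The other differences between Days 1 and 5, and that of Aif1 between Days 1 and 42, depended on the Day 5 control, the tool or scaling, or 1 library. With diabetic vehicle as the Day 5 control, the difference was -0.42 for Tmem119 (adjusted p = 0.138) and -0.05 for Aif1 (adjusted p = 0.922). Limma voom did not call Aif1 between Days 1 and 5 (-0.50, adjusted p = 0.143) or between Days 1 and 42 (-0.76, adjusted p = 0.0686), and with both Day 5 vehicle groups merged it was at -0.36 (adjusted p = 0.225). Siglech, at 0.48 (SE 0.18, adjusted p = 0.0409) under the fold threshold, passed in 14 of 40 settings, among them DESeq2 at 0.52, limma voom at 0.60, diabetic vehicle as control at 0.61 and without non-diabetic vehicle Day 5 replicate 2 at 0.53. Its difference between Days 1 and 42 passed in 4 of 24 settings, DESeq2 at 0.53 among them. Tmem119 without vehicle Day 1 replicate 2 was at -0.50 (adjusted p = 0.0898). Aif1 was at -0.63 and -0.60 without vehicle Day 1 replicate 1 or 2 and at -0.42 without non-diabetic vehicle Day 5 replicate 2, past the test in none of them. Without vehicle Day 1 replicate 2 the Aif1 difference between Days 1 and 42 was -0.69 (adjusted p = 0.0567). Day and preparation cannot be told apart in these contrasts.

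Levels of P2ry12 across all groups followed the order FGF1 Day 1 (9.96 CPM), vehicle Day 1 (15.8), vehicle Day 42 (21.9), FGF1 Day 42 (24.6), diabetic vehicle Day 5 (29.8), non-diabetic vehicle Day 5 (33.3) and FGF1 Day 5 (35.3). The first of these groups did not overlap the second, while each later neighbouring pair overlapped. The summed level of the 8 members was 130.4 ± 12.9 CPM in vehicle and 173.9 ± 19.6 CPM in FGF1 on Day 1. On Day 5 it was 172.1 ± 8.91 in diabetic vehicle, 194.8 ± 34.0 in non-diabetic vehicle and 246.7 ± 15.8 CPM with FGF1. On Day 42 it was 153.9 ± 18.4 and 173.3 ± 11.1 CPM.

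Ligands of these receptors (Csf1, Il34, Cx3cl1 and Apoe) were examined in a list of 6 genes. Its other genes, Tgfb1 and Cd34, do not encode ligands of these receptors. On Day 1, 2 of 6 passed, Csf1 and Tgfb1, both higher, where 11.5% of all genes passed higher. Csf1, a ligand of CSF1R, went from 40.8 ± 5.65 CPM (SD, n = 4) to 62.3 ± 9.26 CPM (SD, n = 10), a log2 fold change of 0.63 (SE 0.10, adjusted p = 1.23e-06). Tgfb1, which maintains the microglial state, went from 1.64 ± 0.494 to 8.01 ± 4.01 CPM (log2 fold change 2.32, SE 0.29, adjusted p = 7.39e-09). Il34, the other CSF1R ligand, was at 0.36 (adjusted p = 0.0498) and Apoe, a lipid carrier bound by TREM2, at -0.42 (adjusted p = 0.0278), both under the fold threshold. Cx3cl1, which encodes fractalkine, was at 0.28 (SE 0.14, adjusted p = 0.0827). On Day 5, 0 of 6 passed against either vehicle group, with Csf1 at 0.13 and 0.17 and Cx3cl1 at -0.01 and 0.08. Of all genes, 1.54% passed there against non-diabetic and 2.85% against diabetic vehicle.

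Among 7 measured signalling partners of TREM2 and DAP12, 5 rose on Day 1 and 0 fell, with a median of 0.58. Clec5a, another DAP12-coupled receptor, was at 1.42 (SE 0.19), the exchange factor Vav1 at 1.04 (SE 0.19) and the kinase Syk, which binds phosphorylated DAP12, at 0.77 (SE 0.17). On Day 5, 4 of 7 rose against diabetic vehicle (Vav1 at 0.81, Syk at 0.56) and 0 of 7 against non-diabetic vehicle. Without non-diabetic vehicle replicate 2, where this list summed to 61.9 CPM against 33.8 to 39.4 CPM in the other 6 and 47.6 to 55 CPM with FGF1, 3 of 7 rose. Of 8 microglial transcription factors and TGF-beta receptors, 4 rose on Day 1, among them Runx1 at 2.59 (SE 0.27), Cebpa at 1.32 (SE 0.14) and Spi1, which encodes PU.1, at 0.91 (SE 0.21, adjusted p = 0.000567). On Day 5, 3 of the 8 rose against diabetic vehicle and 1 against non-diabetic vehicle, with or without its replicate 2. Cebpa was then at 0.07 and 0.09 and passed neither test. Spi1 rose on Day 5 against diabetic vehicle (0.80, adjusted p = 0.0107) and was at 0.24 (SE 0.20) against non-diabetic vehicle. Beside the counts of both lists, 11.5% of all genes passed higher and 8.05% lower on Day 1. On Day 5, 2.85% of all genes passed against diabetic and 1.54% against non-diabetic vehicle (1.76% without its replicate 2).

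Of 15 further homeostatic microglia genes, 8 rose and 0 fell on Day 1, with a median of 0.54, close to that of the 8 members. Fcrls, an Fc receptor-like gene of microglia, went from 6.68 ± 1.66 to 23.9 ± 4.85 CPM (log2 fold change 1.83, SE 0.17) and remained higher on Day 5, at 1.24 against non-diabetic and 1.36 against diabetic vehicle. Olfml3 behaved alike, at 1.43 on Day 1 and 0.99 and 1.01 on Day 5, and neither passed on Day 42. All 3 C1q subunits, complement components that microglia make, rose on Day 1 (C1qa 1.15, C1qc 1.09 and C1qb 1.06), as did all 10 pan-myeloid genes (median 1.19), including Cd14 at 1.92 and Itgb2 at 1.42. In the same libraries P2ry12 was lower. On Day 5 against non-diabetic vehicle, 2 of the 15 further homeostatic genes, 1 of 3 C1q subunits and 2 of 10 pan-myeloid genes rose, and without replicate 2 of that vehicle the counts were 5, 3 and 6. Against diabetic vehicle they were 7, 3 and 7. The share of all genes that passed was 19.5% on Day 1 (11.5% higher). On Day 5 it was 1.54% against non-diabetic vehicle, 1.76% without its replicate 2 and 2.85% against diabetic vehicle.

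Markers of other myeloid cells moved with the members on Day 1, and their part in these results was not tested. Of 5 measured border macrophage markers 4 rose, and their summed level was 17.0 to 28.7 CPM with vehicle and 25.2 to 61.5 CPM with FGF1. F13a1 was at 1.55, Mrc1 at 1.04 and Stab1 at 0.85, while Ms4a7, Pf4, Cbr2, Cd209f and Clec4n have no row in the table. Of 10 monocyte and neutrophil markers only Ccr2 has a row, and it rose, with a range of 0.246 to 0.988 CPM in vehicle and 0 to 4.71 CPM in FGF1 libraries (log2 fold change 1.69, adjusted p = 0.00991). None of 10 lymphocyte markers has a row. On Day 5 the border macrophage markers summed to 35.6 to 57.4 CPM with FGF1, 26.9 to 36.5 CPM with diabetic and 25.7 to 37.9 CPM with non-diabetic vehicle, and 2 of 5 and 1 of 5 rose. On Day 42 they summed to 17.7 to 24.4 CPM with FGF1 and 18 to 26.4 CPM with vehicle. Of all genes, 11.5% passed higher on Day 1, and 2.85% and 1.54% passed on Day 5 against diabetic and non-diabetic vehicle.

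Of the neural markers, 0 of 8 neuronal genes passed on any day. Their summed level on Day 1 was 4120 to 5140 CPM with vehicle and 3070 to 3960 CPM with FGF1, lower in every FGF1 library. On Day 5 it was 2490 to 3050 CPM with FGF1, below every non-diabetic vehicle library (3080 to 3250 CPM) and overlapping diabetic vehicle (2930 to 3380 CPM), and on Day 42 the groups overlapped, at 4130 to 6120 CPM with FGF1 and 4240 to 5660 CPM with vehicle. Its part in the member results was not tested. Of 8 oligodendrocyte markers 4 fell on Day 1 and 3 rose on Day 5 against each vehicle group. Of 8 astrocyte markers 1 rose and 2 fell on Day 1, and 2 rose on Day 5. Of 9 hypothalamic markers 1 rose (Pomc) and 1 fell (Pmch) on Day 1, and 0 passed on Day 5. Beside these counts, 19.5% of all genes passed on Day 1 (11.5% higher, 8.05% lower), and the hypothalamic count is near that share. On Day 5, 1.54% of all genes passed against non-diabetic and 2.85% against diabetic vehicle. On Day 42 no gene of any list passed, where 0% of all genes did.

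**Figure D5:**
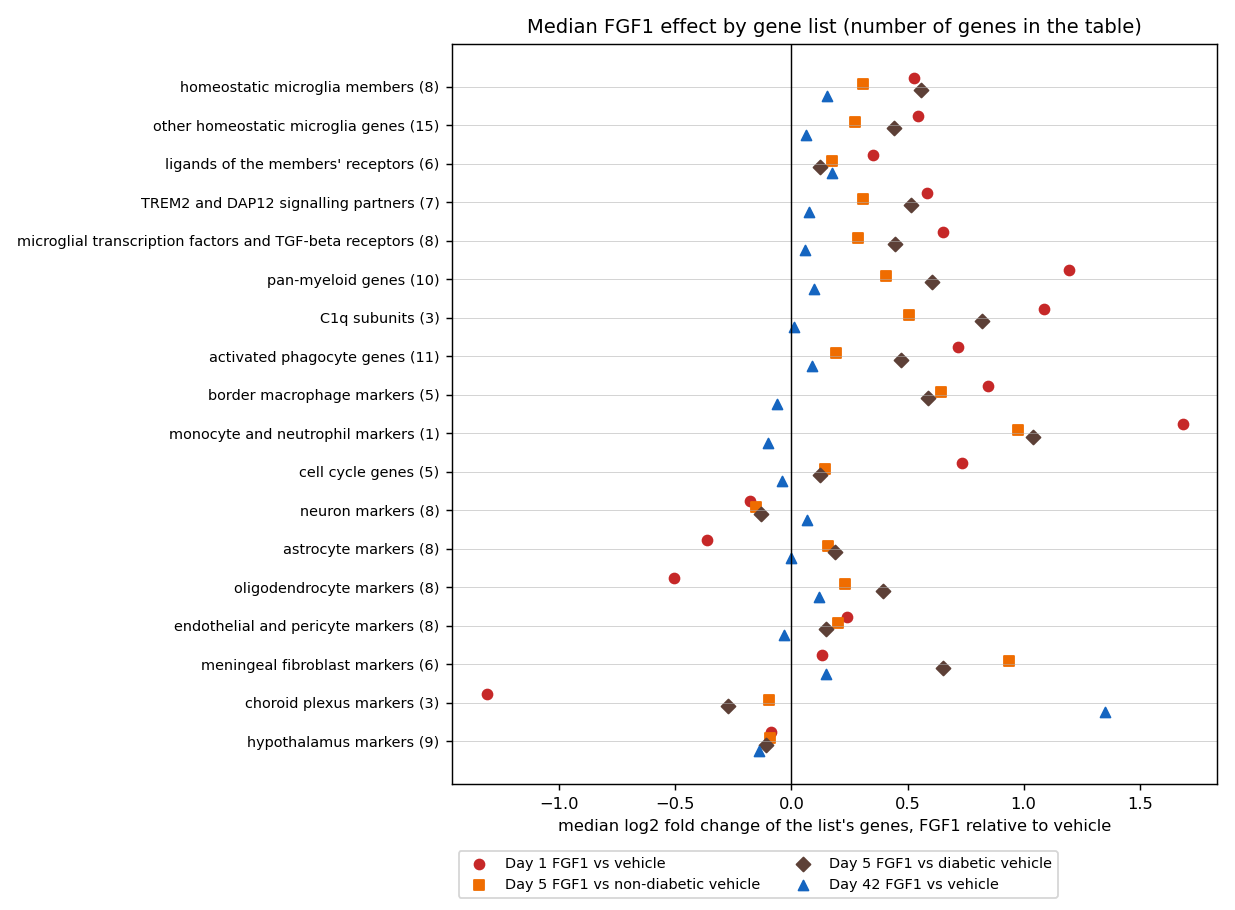
Median log2 fold change (x axis, FGF1 relative to vehicle) of each gene list (y axis, number of its genes in the table) on Day 1, on Day 5 against each vehicle group, and on Day 42. The list of ligands of the members' receptors also holds Tgfb1 and Cd34, which are not such ligands. The 8 members have medians of 0.53, 0.31, 0.56 and 0.15, the pan-myeloid list 1.19 on Day 1, and the neuronal list -0.18 on Day 1.

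Within groups, the 8 transcripts shared variation between mice to different degrees. Over the deviations of log2(CPM + 0.5) from the group mean in all 47 libraries, the 28 pairs of members had Pearson correlations from -0.19 to 0.78 with a median of 0.32, and 24 were above zero. The libraries share depth and composition effects, so these are a description. Without the shallow FGF1 Day 1 replicate 1 they ran from -0.207 to 0.744 with a median of 0.354, and Cx3cr1 with Csf1r went from 0.309 to 0.513. Non-diabetic vehicle Day 5 replicate 2, which stood apart for several members, was included, and its part was not tested. Csf1r with Tyrobp (0.776), Tmem119 with Csf1r (0.756) and Trem2 with Tyrobp (0.744) were high, whereas P2ry12 was at -0.191 with Tyrobp, at -0.152 with Tmem119 and at 0.541 with Siglech. Among 14123 genes the ones most like Tmem119, Csf1r, Trem2 and Tyrobp included C1qa, at 0.851, 0.822, 0.708 and 0.81. Those most like Cx3cr1 were the leukocyte genes Bin2 (0.668), Nckap1l and Lyn, and those most like Aif1 were Gbp2 (0.674) and the antigen-presentation genes H2-Aa and Cd74. For P2ry12 they were Glod4 (0.746), Fut9 and Atp2c1, and for Siglech Ermn (0.637), Apln and Kcnj10.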

How the data were processed

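Bulk hypothalamic RNA from 47 Lep ob/ob mice was sequenced with a stranded mRNA kit. The deposited file holds raw read counts per gene, made by the authors; the labels name STAR and DESeq2 without versions, and the counting program is not given in the sources used here. The 14221 genes of the table each have at least 307 counts in all, so genes of low abundance have no row. Groups followed the labels, which give 3 groups on Day 5 where the authors' sample sheet gives 2.

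Counts were scaled by TMM factors and 1 quasi-likelihood model with 7 group means was fitted to all libraries in edgeR 4.0.16 (R 4.3.3, limma 3.58.1). edgeR's low-count filter removed 0 genes. A gene was called at a Benjamini-Hochberg adjusted p under 0.05 over all genes and a log2 fold change above 0.5 in size; SEs were the fold change divided by the square root of F. Effects were compared between days as contrasts in the same model. Members were also tested singly by exact two-sided permutation of log2(CPM + 0.5) (SciPy 1.17.1), with pseudocounts of 0.1 and 2 as alternatives. Libraries are separate mice, so p-values measure the spread between mice; each day is a single preparation. Library totals of 1243280 to 47082403 counts set the precision. Exon lengths and GC content came from GENCODE vM21 (GRCm38), which held 14180 of the 14221 genes, and promoters from RefSeq (GRCm38.p6).

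The members and lists were chosen with earlier results of these data known. Beside the members, up to 3 genes a list were named, those with the largest size of log2 fold change among genes past the thresholds on Day 1 or Day 5 at a mean of at least 1 CPM; Csf1, Il34, Cx3cl1, Apoe and Spi1 were always named, as were the 3 genes most like each member. Some genes that this rule names are not reported here. On simulated counts for 14221 genes, with 200 genes changed by 0.85 on the log2 scale, the model recovered 92.5% on Day 1, 91% and 90% on Day 5 against non-diabetic and diabetic vehicle, and 92.5% on Day 42. Alternatives were DESeq2 1.42.0, its size factors, upper-quartile factors, limma voom with quality weights, a count minimum of 10 in every library, no fold threshold, merged Day 5 vehicles, models of single days and leaving out 1 library at a time, which covered every library of Days 5 and 42, the 4 vehicle libraries of Day 1 and FGF1 Day 1 replicate 1, but not the other 9 FGF1 Day 1 libraries. Excluding the 2 deepest Day 5 libraries (both FGF1), an offset for GC content and the lists without non-diabetic vehicle Day 5 replicate 2 were added after seeing the data.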

Additional observations from a re-analysis of the deposited data

Results flagged for a closer look

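Dixon's test at the 95% level was applied to each member in each of its 7 groups, 56 in all, of which chance would mark about 1 in 20. It marked 8, of which 5 were the same library, non-diabetic vehicle Day 5 replicate 2. There Csf1r was at 118.4 CPM with the next library at 78.03, Tmem119 at 22.05 (next 17.29), Tyrobp at 14.15 (next 9.25), Trem2 at 12.84 (next 9.242) and Aif1 at 6.583 (next 3.247). Siglech was low in FGF1 Day 1 replicate 5, at 4.854 CPM (next 8.877), and in vehicle Day 42 replicate 5, at 13.26 CPM (next 17.06). Aif1 was high in vehicle Day 42 replicate 3, at 4.484 CPM (next 3.519).

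The FGF1 effect differed between days by the contrast of the effects themselves. From Day 1 to Day 5 it differed by 0.7421 for P2ry12, -0.6807 for Tmem119 and -0.6689 for Aif1. From Day 1 to Day 42 it differed by 0.8262 for P2ry12, -1.004 for Tmem119, -0.7676 for Aif1 and -0.8235 for Tyrobp, all on the log2 scale.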

How the results depend on the processing

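Of the values for single members under the alternatives, 1808 kept their direction and side of the thresholds, 44 passed newly, 22 no longer passed and 46, none of them past the thresholds, changed sign; 230 counts of members stayed within 1.5 times and 14 did not. On Day 1, 6 members became 3 (of 6 tested) with at least 10 counts in every library, where Aif1 was not tested and Cx3cr1 (0.46) and Csf1r (0.48) came under the fold threshold; it was 4 with DESeq2 or its size factors and 5 with voom, upper-quartile factors or the GC offset. P2ry12, Tmem119, Aif1 and Tyrobp passed wherever they were tested. Against non-diabetic vehicle on Day 5, 0 became 4 with no fold threshold, 3 with merged vehicles, 2 with voom, and 1 with upper-quartile factors, with at least 10 counts, without the 2 deepest libraries or with the GC offset, where 1.24% to 4.65% of all genes passed; the cause was not tested. On Day 1 that share was 14.7% with at least 10 counts and 17.6% to 19.6% in the other settings named. Leaving out 1 library gave 5 to 6 on Day 1 (5 of 14 libraries, the 4 vehicle ones and FGF1 replicate 1), 0 to 3 and 5 to 6 on Day 5 against non-diabetic and diabetic vehicle, 0 to 0 between vehicles and on Day 42, and, with the same 5 of Day 1, 2 to 4 between Days 1 and 5, 0 to 0 between Days 5 and 42 and 3 to 5 between Days 1 and 42. In those fits 16.4% to 21.7% of all genes passed on Day 1, 1.19% to 1.76% and 2.45% to 2.91% on Day 5 against non-diabetic and diabetic vehicle, 0% between vehicles, 0% to 0.218% on Day 42, 12.8% to 18% between Days 1 and 5, 0.394% to 1.05% between Days 5 and 42 and 13.4% to 18.4% between Days 1 and 42. With diabetic vehicle as control, 2 members, P2ry12 and Siglech, differed between Days 1 and 5, against 16.8% of all genes. Depth limits Aif1 and Trem2 most, with as few as 6 and 4 counts in a library.

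Trem2 on Day 1 was -0.0071 with DESeq2, -0.0080 with its size factors, -0.0716 with voom, -0.10 with the GC offset and -0.1058 to 0.1452 without 1 library. Its difference between Days 1 and 42 was 0.037, 0.039, 0.26 and 0.14 in the same 4, 0.014 with single days and -0.1285 to 0.1338 without 1 library. With diabetic vehicle as control, the difference between Days 1 and 5 was 0.016 for Cx3cr1 and 0.042 for Csf1r. Between Days 5 and 42, P2ry12 was -0.037 with voom, -0.079 with diabetic vehicle and -0.06309 to 0.1713 without 1 library, and Siglech 0.017 with DESeq2, 0.0169 with its size factors, 0.0016 with single days, 0.0091 with the GC offset and -0.07475 to 0.03983 without 1 library. Without 1 library, Tyrobp between vehicles was -0.1603 to 0.02438, and on Day 42 Trem2 was -0.06763 to 0.1739 and Tyrobp -0.07351 to 0.1149. No paired analysis was possible because the replicate numbers only name samples in accession order.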

Other observations

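Genes of activated phagocytes were measured in the same libraries. Of the 19 listed, 8 have no row in the table. On Day 1, 6 of the other 11 rose and 0 fell, with a median of 0.72. Spp1, which encodes osteopontin, went from 25.4 to 913 CPM (log2 fold change 5.18) and Lgals3, which encodes galectin-3, from 2.14 to 25.4 CPM (3.59). Lyz2, the lysozyme of myeloid cells, was at 0.72 on Day 1, 1.27 against non-diabetic and 1.42 against diabetic vehicle on Day 5. There Spp1 was at 0.19 and 0.05 and Lgals3 at 0.30 and 0.42, none of them past the test, and 1 and 2 of the 11 genes rose. Of 5 cell cycle genes that have a row, 4 rose on Day 1, Mki67 by 2.90, Mcm5 by 2.04 and Cenpf by 0.74 on the log2 scale among them, and 2 rose on Day 5 against each vehicle group. Of all genes, 11.5% passed higher on Day 1, and 1.54% and 2.85% passed on Day 5 against non-diabetic and diabetic vehicle.

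Genes of other glia were measured on the same days. Gfap, the intermediate filament of astrocytes, was at 2.81 on Day 1 and 1.29 and 1.28 on Day 5, while the water channel gene Aqp4 was at 0.32 on Day 1 and 0.98 and 1.01 on Day 5. Gpr17, a gene of immature oligodendrocytes, was at -1.07 on Day 1 and at 1.80 and 1.85 on Day 5, and Mog, a myelin gene, at -1.62 on Day 1. Of 8 endothelial and pericyte markers 3 rose and 1 fell on Day 1 and 0 passed on Day 5. Of 6 meningeal fibroblast markers 2 rose (Lum at 2.24) and 2 fell (Slc6a13 at -2.71) on Day 1, and 3 and 1 rose on Day 5 against non-diabetic and diabetic vehicle, the 3 becoming 1 without non-diabetic vehicle replicate 2. Of 3 choroid plexus markers 2 fell on Day 1 and 0 passed on Day 5. On Day 42 they had a median of 1.35, and their sum reached 185 CPM in an FGF1 library (median 32.2 CPM, n = 5) against 25.5 to 43.3 CPM with vehicle. On Day 42, 0 genes of these lists passed, as did 0% of all genes. Of all genes, 11.5% passed higher and 8.05% lower on Day 1, and 1.54% and 2.85% passed on Day 5 against non-diabetic and diabetic vehicle.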
